A study of Mus musculus with 8 samples.

Results

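Integrins are surface receptors built from 1 alpha and 1 beta chain, and the chromatin at 9 of their genes was described here in mouse splenic cDC1, the conventional dendritic cells of type 1 that present antigen of dead cells to CD8 T cells. The genes were Itgal, Itgb2, Itgae, Itgb7, Itga4, Itgb1, Itgav, Itgb5 and Itgb8, the leukocyte integrin genes that lie outside the cluster of Itgam, Itgax and Itgad. All regions of the deposited count table that overlapped the span of one of these genes or lay within 25 kb of it were taken, which gave 84 of 59906 regions, and no region fell to more than 1 gene. Accessibility was read by ATAC-seq: a transposase cuts DNA that nucleosomes leave open and tags it for sequencing. The OPA1KO group held 4 libraries of cDC1 from CD11c-Cre;OPA1 flox mice, labelled OPA1-deficient, and the WT group held 4 libraries of cDC1 from WT mice. The OPA1 protein joins the inner membranes of mitochondria and keeps the cristae in form. The Cre transgene is driven by regulatory sequence of the CD11c gene, which dendritic cells of all subsets and some macrophages also use. The labels used here do not give the transgenic line, whether WT mice carried Cre or the floxed allele, the age of the mice, or which animal each library came from, so p-values reflect how far these libraries vary, and that variation may be technical.

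Levels are CPM, that is, counts divided by the library total and its TMM factor and brought to a common scale, and log2 fold changes are OPA1KO minus WT with their standard error. Counts in regions totalled 5522153 to 7590578 per OPA1KO library and 4660826 to 6777651 per WT library. At the targeted gene, the region over an end of the Opa1 model held 34.6 to 43.0 CPM in OPA1KO libraries and 37.8 to 47.0 CPM in WT libraries, and the deleted part of the gene is not given, so this does not check the genotype. All 9 cDC1 marker genes examined (Xcr1, Clec9a, Irf8, Batf3, Cadm1, Tlr3, Wdfy4, Zbtb46 and Flt3) had a region at a gene end, with summed levels of 193 to 217 CPM in OPA1KO libraries and 188 to 216 CPM in WT libraries. The lists of other cell types did not all overlap between the groups. The 8 red pulp macrophage markers, none of them at 0, summed to 33.8 to 42.1 CPM in OPA1KO libraries and 42.6 to 58.0 CPM in WT libraries. For cDC2, the other conventional subset, 3 of 5 markers had such a region, and these summed to 48.1 to 53.1 CPM in OPA1KO libraries and 53.8 to 61.7 CPM in WT libraries. Taken singly, each of these 3 overlapped between the groups. Whether these markers have a part in the values below was not tested. In bulk libraries, fewer cells of a type and less open chromatin per cell cannot be told apart.

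The integrin chains pair in a fixed scheme. LFA-1, the dimer of the chains from Itgal (CD11a) and Itgb2 (CD18), binds ICAM proteins and holds dendritic cells and T cells together. CD103, the chain from Itgae, pairs with the chain from Itgb7 and binds E-cadherin, and it is a surface marker of many cDC1. The alpha 4 chain from Itga4 pairs with the beta 1 chain from Itgb1 to bind VCAM1 and fibronectin, or with beta 7 to bind MAdCAM1 on gut vessels. The alpha V chain from Itgav pairs with beta 5, which takes part in the uptake of dying cells, and with beta 8, through which dendritic cells release active TGF-beta from its latent form. The comparison asked whether loss of OPA1 in CD11c-expressing cells went with a difference in accessibility at these genes.

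Sequence before the start site is shown first for 4 genes that span the range of openness, since their start regions were the most open (Itga4, Itgav) and among the least open (Itgb5, Itgb7) of those that covered a listed start. RefSeq promoter entries on GRCm38.p6 matched 6 of the 9 genes, and Itgal, Itgb2 and Itgae had none. Each line gives the 250 bases before the start site, 5′ to 3′ on the strand of the gene, at chr2:79255176-79255425 (plus strand) for Itga4, chr2:83724147-83724396 (plus strand) for Itgav, chr16:33829415-33829664 (plus strand) for Itgb5 and chr15:102231936-102232185 (minus strand) for Itgb7. Capitals mark matches, on either strand, to the GC box GGGCGG, bound by SP and KLF factors, and to the ETS core AGGAAGT, the kind of motif that PU.1 and other ETS factors bind.
Itga4: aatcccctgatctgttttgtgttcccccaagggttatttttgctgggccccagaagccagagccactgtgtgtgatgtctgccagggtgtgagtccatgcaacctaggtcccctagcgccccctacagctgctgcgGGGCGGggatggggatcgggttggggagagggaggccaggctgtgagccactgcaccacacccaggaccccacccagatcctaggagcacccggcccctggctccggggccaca
Itgav: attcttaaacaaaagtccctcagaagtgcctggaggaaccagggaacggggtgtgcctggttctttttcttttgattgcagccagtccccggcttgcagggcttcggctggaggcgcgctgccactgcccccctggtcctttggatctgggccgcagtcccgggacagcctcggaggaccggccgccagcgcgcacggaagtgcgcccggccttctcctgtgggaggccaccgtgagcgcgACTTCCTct
Itgb5: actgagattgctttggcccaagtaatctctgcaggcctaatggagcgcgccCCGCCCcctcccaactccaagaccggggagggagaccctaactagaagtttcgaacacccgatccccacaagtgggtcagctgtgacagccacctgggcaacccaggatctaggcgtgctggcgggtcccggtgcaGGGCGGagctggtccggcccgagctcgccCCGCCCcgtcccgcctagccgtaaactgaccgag
Itgb7: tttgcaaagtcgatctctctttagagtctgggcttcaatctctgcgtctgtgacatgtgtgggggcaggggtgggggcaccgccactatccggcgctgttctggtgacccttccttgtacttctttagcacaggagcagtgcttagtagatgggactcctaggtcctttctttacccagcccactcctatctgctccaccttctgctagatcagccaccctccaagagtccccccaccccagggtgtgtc
The Itga4 sequence held 1 GC box, whose first base lies 114 bases before the start site. The Itgav sequence held 1 match to AGGAAGT, the only form of the ETS core searched for, and no GC box. The first base of this match lies 9 bases before the start site. The Itgb5 sequence held 3 GC boxes, at 199, 63 and 34 bases before the start site, although its start region was among the least open. No match to either motif was found in the 250 bases of Itgb7. Of the sequences not printed, that of Itgb1 held 1 GC box at 151 bases and that of Itgb8 no match. Over the 32851 promoter entries of the table, 32.7% held a GC box and 7.69% an ETS core in the same 250 bases. The RUNX core TGTGGTT (4.40% of entries) and the AP-1 motif TGANTCA (6.75%) were found in none of the 6 integrin promoters, and no matches overlapped one another. CpG dinucleotides numbered 6 before Itga4, 18 before Itgav, 18 before Itgb5 and 5 before Itgb7, against a median of 6 over all entries. A match is a description of the letters and not of binding.

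Accessible start sites were found for most members with a listed start. The listed starts of Itgav (83724397) and Itgb7 (102231935) lie inside the gene models used here, whose ends are at 83722303 and 102233405, so a start region here is one at the listed start and not at the end of the model. A region covered the listed start of 5 of the 6 genes, against 35.7% of all listed starts, and the nearest region to the start of Itgb8 lay 46 bp upstream of it. Per kb of region, the start region stood at 92.8 CPM per kb for Itga4, 73.2 for Itgav, 35.1 for Itgb1, 16.1 for Itgb7, 11.6 for Itgb5 and 10.9 for Itgb8, as means over the 8 libraries. Of the 9327 regions that cover a listed start, 70.8% were less open per kb than that of Itga4, 61.2% than that of Itgav, 31.4% than that of Itgb1 and 9.5% than that of Itgb7. Only 1.7% and 1.2% were less open than the start regions of Itgb5 and Itgb8.

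Over the regions whose nearest gene was the member, the level per kb was highest at Itgb2 and lowest at Itgb8. It averaged 78.4 CPM per kb at Itgb2 (60.1 to 98.5 over the 8 libraries), 72.9 at Itga4 (66.2 to 88.9) and 37.2 at Itgal (29.4 to 47.1). Next came Itgae with 35.0 CPM per kb (32.3 to 39.9), Itgav with 30.9 (26.9 to 35.1) and Itgb1 with 30.8 (28.1 to 35.3). The lowest were Itgb5 with 21.4 CPM per kb (18.7 to 26.0), Itgb7 with 17.8 (15.7 to 21.1) and Itgb8 with 16.5 (14.2 to 21.5). Only the steps between Itga4 and Itgal and between Itgb1 and Itgb5 were wider than the ranges of the libraries. The other neighbours in this order overlapped.

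**Figure D1:**
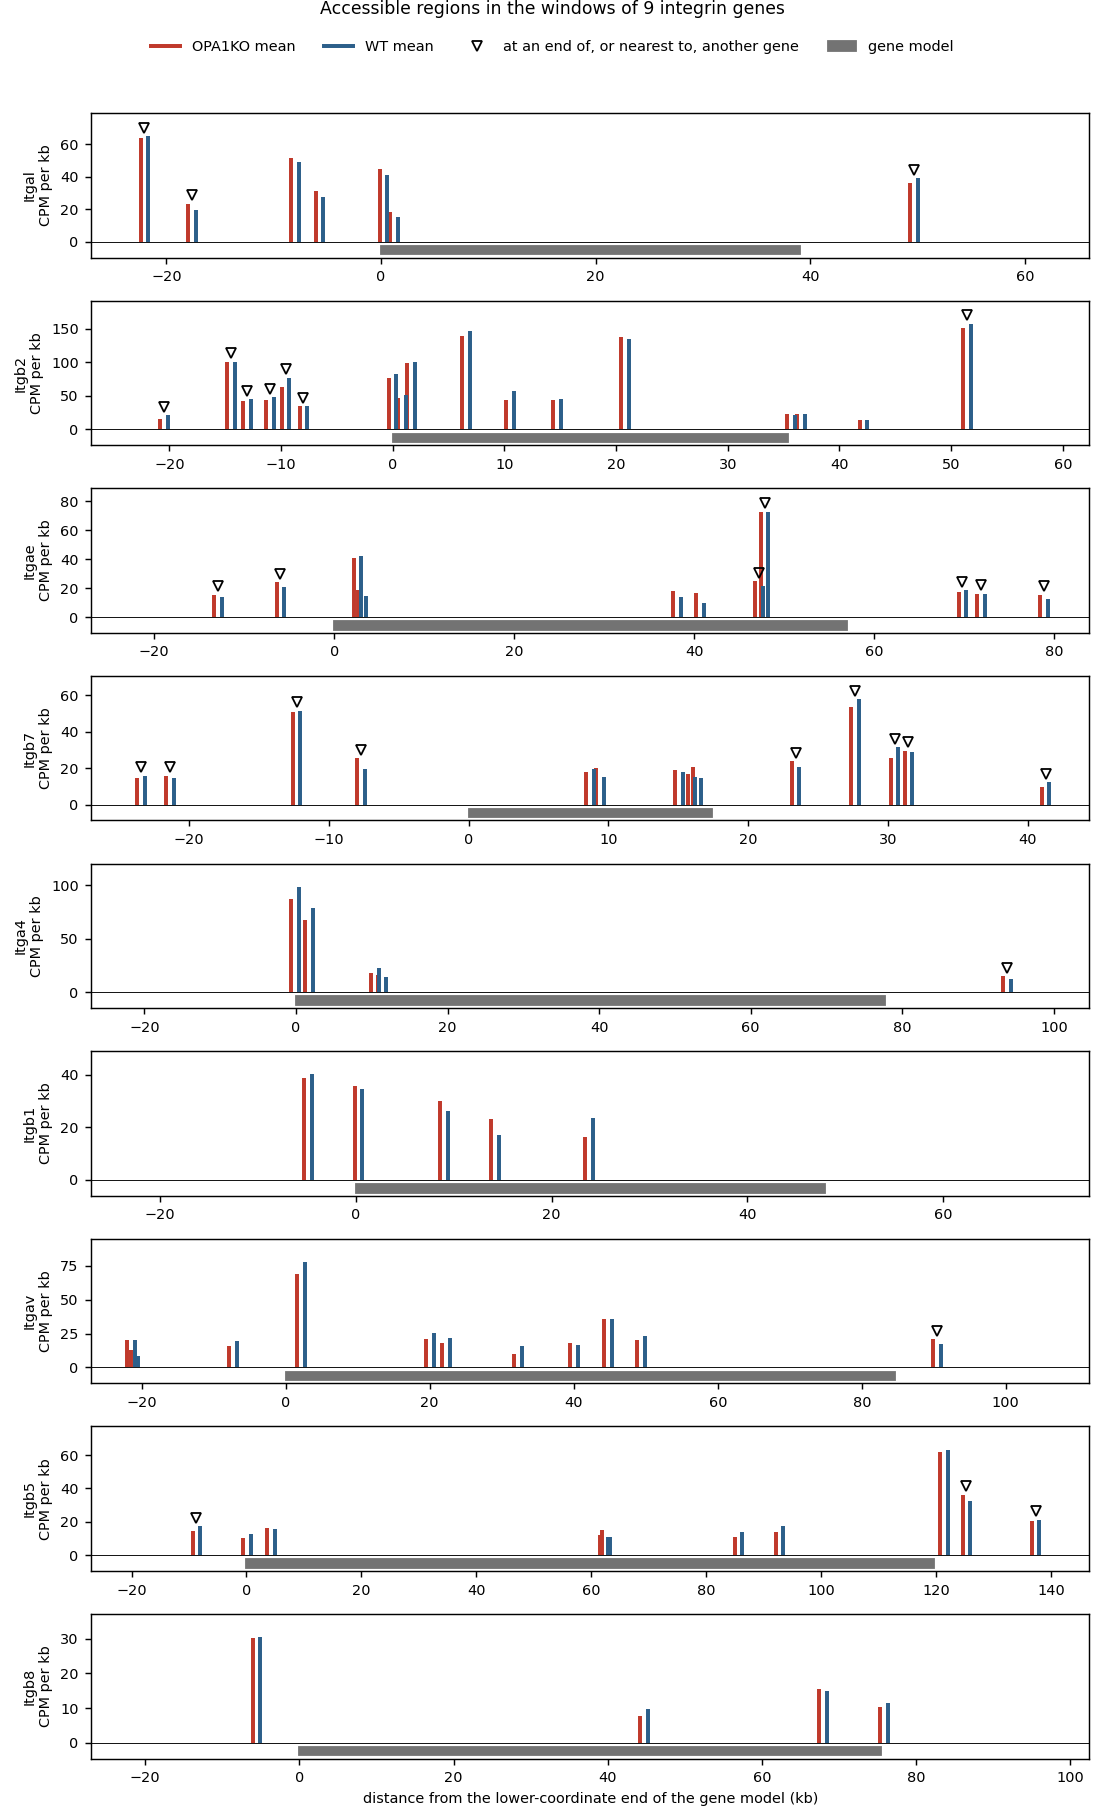
Level of each region in the windows of the 9 genes, in CPM per kb of region (vertical axis), against distance from the lower-coordinate end of the gene model in kb (horizontal axis). Red and blue lines are the OPA1KO and WT means (n = 4 each), drawn side by side, grey bars are gene models, and open triangles mark regions at an end of, or nearest to, another gene. The red and blue lines are of like height at nearly every region, and the tallest lines inside Itgb2 reach 143 and 136 CPM per kb as means over the 8 libraries.

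None of the member regions passed the test. Of the 84 regions, 83 were kept by the filter on low counts, and the remaining region, inside Itgb8 at 119207470, had 0.730 CPM on average. At an edgeR quasi-likelihood adjusted p of 0.05, 0 of 83 were called, against 12 of 59247 regions in all (0.0203%), and the smallest adjusted p was 0.719. DESeq2 and limma-voom also called 0 member regions. At an unadjusted p under 0.05 there were 3 member regions, 1 higher and 2 lower, against 6.38% of all tested regions. In 2 member regions the groups did not overlap, 1 higher and 1 lower in OPA1KO, against 3.95% of all tested regions (1.84% higher, 2.11% lower). Neither share was above the background. Log2 fold changes ranged from −0.63 to 0.71 with a median of −0.01, and the median over all tested regions was 0.00. They were above 0 in 40 regions and below 0 in 43, and 79 of the 83 were within 0.5 of 0.

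**Figure D2:**
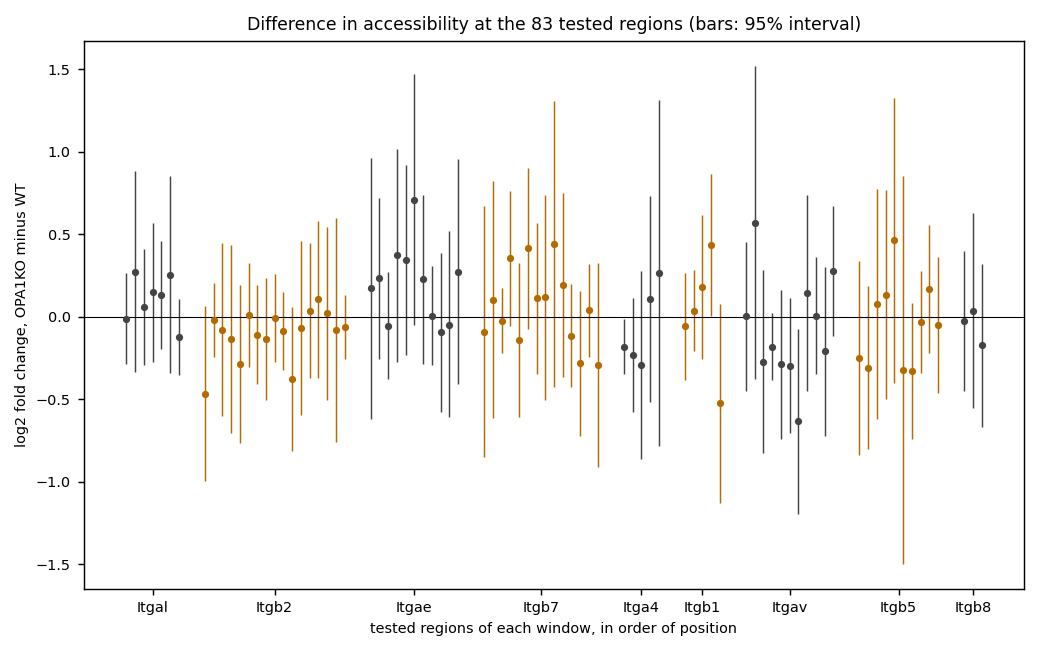
Log2 fold change, OPA1KO minus WT, at the 83 tested regions (vertical axis), grouped by gene and in order of position within each window (horizontal axis). Points are edgeR estimates, bars are 95% intervals and colours alternate between genes. All but 3 intervals cross 0, and the most distant points, −0.63 in Itgav and 0.71 in Itgae, have wide intervals.

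Summed over each window, 0 of the 9 genes passed the same test, against 4 of 16976 genes (0.0236%), and 0 of the 9 were without overlap between the groups, against 3.15% of genes. The gene with the smallest p was Itga4 (unadjusted p = 0.0320, edgeR adjusted p = 0.911), and 5.20% of genes had an unadjusted p under 0.05. The 4 called genes were Itgam, Itgax, Itgad and Cox6a2, whose windows share regions, since Cox6a2, a cytochrome c oxidase subunit gene, adjoins Itgad. Itgam (CD11b), Itgax (CD11c) and Itgad (CD11d) encode the other alpha partners of beta 2. Their sums averaged 377 ± 43.9, 248 ± 31.3 and 36.5 ± 6.22 CPM in OPA1KO libraries and 227 ± 33.5, 121 ± 17.5 and 16.7 ± 2.01 CPM in WT libraries (SD, n = 4), with log2 fold changes of 0.74 ± 0.10, 1.04 ± 0.10 and 1.12 ± 0.14 (edgeR adjusted p = 0.00952, 0.000461 and 0.00250). The Cre transgene of the OPA1KO mice is driven by regulatory sequence of Itgax, and reads from such sequence could be counted at this locus. Whether they add to these sums was not tested. Itgal, the remaining alpha partner, lies on the same chromosome 727.5 kb from the Itgam model.

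**Figure D3:**
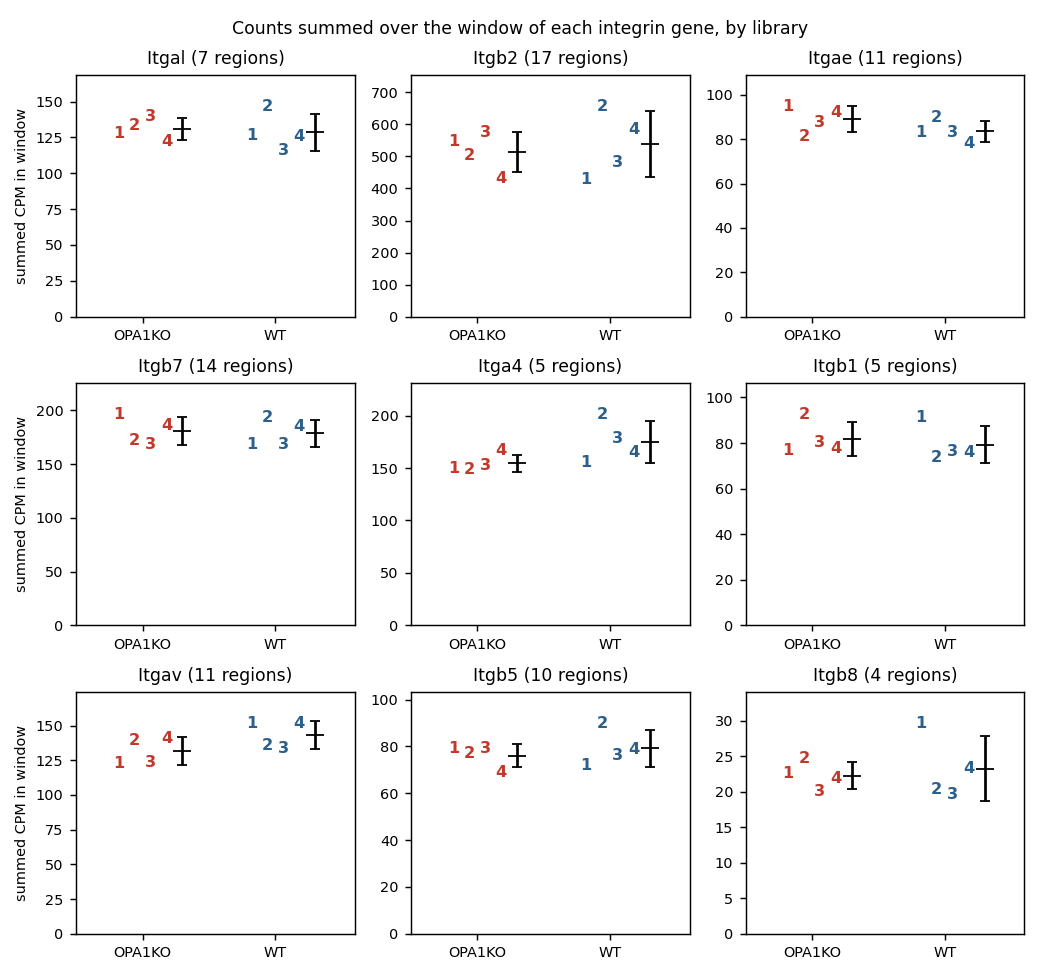
CPM summed over all regions of each window (vertical axis, from 0) in OPA1KO and WT libraries. Digits are replicate numbers, and the bars beside them are the mean and SD (n = 4). The groups overlap at all 9 genes, and Itgb2 spans 431 to 576 CPM in OPA1KO and 428 to 657 CPM in WT libraries.

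At the LFA-1 genes, levels did not differ between the groups beyond their spread, while Itgb2 varied widely from library to library within each group. Itgal (chromosome 7, 127296139 to 127335137, GRCm38) had 7 regions in its window, 2 of them inside the gene. Its end region at 127296083 to 127296612 held 24.5, 22.8, 28.4 and 19.3 CPM in OPA1KO replicates 1 to 4, against 18.9, 29.0, 19.2 and 19.7 CPM in WT replicates 1 to 4 (log2 fold change 0.13 ± 0.16, edgeR adjusted p = 0.936). The values of the groups intermingled, and WT replicate 2 had the highest of all. The log2 fold change was 0.31 without WT replicate 2 and 0.03 without OPA1KO replicate 3. The most abundant region of the window lay over the end of Zfp768, a zinc finger gene, at 127345288 to 127346351, with 38.3 ± 1.61 CPM in OPA1KO and 41.6 ± 4.22 CPM in WT libraries (SD, n = 4, −0.12 ± 0.11, edgeR adjusted p = 0.908). Summed over the window, Itgal was at 131 ± 7.601 CPM in OPA1KO and 129 ± 13.0 CPM in WT libraries (log2 fold change 0.02 ± 0.08, 95% interval −0.14 to 0.18). That window also holds regions at ends of other genes, and the log2 fold change was 0.15 over the gene span alone and 0.12 over the regions nearest to Itgal.

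Itgb2 (chromosome 10, 77530329 to 77565708) had the most regions, 17, of which 7 were inside the gene. Its window summed to 545, 504, 576 and 431 CPM in OPA1KO replicates 1 to 4, against 428, 657, 482 and 585 CPM in WT replicates 1 to 4 (−0.07 ± 0.12, 95% interval −0.32 to 0.19, edgeR adjusted p = 0.999). OPA1KO replicate 4 and WT replicate 1 were the low libraries and WT replicates 2 and 4 the high ones, so the spread lay within the groups. The within-group SD of its log2 sum was 0.23, larger than that of 95.4% of 14168 genes with at least 20 CPM, whose median was 0.12. For Itgal the SD was 0.12.

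The same libraries were low at most regions of the Itgb2 window. OPA1KO replicate 4 was the lowest OPA1KO library in 12 of 17 regions, and WT replicate 1 was the lowest WT library in 13 of 17. Both of the most open regions inside the gene showed it, although they were singled out after their values were seen. The region at 77550821 to 77551400 held 87.9, 72.0, 97.7 and 60.2 CPM in OPA1KO replicates 1 to 4, against 54.3, 97.1, 73.0 and 86.2 CPM in WT replicates 1 to 4 (0.04 ± 0.19, edgeR adjusted p = 0.990). At 77536612 to 77537184, levels were 81.7, 78.7, 89.4 and 67.7 CPM in OPA1KO libraries, against 68.3, 106, 74.0 and 88.6 CPM in WT libraries (−0.08 ± 0.12, edgeR adjusted p = 0.943). These regions exceeded 96.8% and 97.2% of all regions in level per kb. The neighbouring gene Fam207a had regions of both kinds at its end, which were also chosen after their values were seen: that at 77515612 to 77516078 lay within 42.4 to 49.8 CPM in OPA1KO and 40.9 to 51.6 CPM in WT libraries, while that at 77517147 to 77517347 ranged over 6.23 to 10.7 CPM in OPA1KO and 5.63 to 13.4 CPM in WT libraries. Some markers of other cell types had the same low and high libraries, but the order was not particular to them. For monocytes and neutrophils, 4 of 6 had a region at a gene end, none of them at 0, and these summed to 60.3, 58.9, 67.7 and 46.2 CPM in OPA1KO replicates 1 to 4 and 39.4, 72.0, 45.4 and 67.8 CPM in WT replicates 1 to 4. That order came from S100a8 and S100a9, of which S100a9 held 24.9 CPM in OPA1KO replicate 4 and 48.0 CPM in WT replicate 2. Camp ran the other way, with 2.46 CPM in OPA1KO replicate 4, 1.98 CPM in WT replicate 1 and 0.623 CPM in WT replicate 2, and Ly6c2 was at 8.21 CPM in WT replicate 1 and 7.48 CPM in WT replicate 2. The T cell marker Cd3d held 41.0 CPM in OPA1KO replicate 4 and 67.0 CPM in WT replicate 2. Its lowest WT library was replicate 3 with 49.4 CPM, against 52.0 CPM in WT replicate 1. The cDC2 marker Sirpa held 25.9 CPM in OPA1KO replicate 4 and 41.9 CPM in WT replicate 2. The other cDC2 markers with a region did not follow. Irf4 held 19.8 CPM in OPA1KO replicate 4, its highest OPA1KO library, 24.0 CPM in WT replicate 1 and 17.9 CPM in WT replicate 2. Cd209a held 3.19 CPM in WT replicate 1 and 1.87 CPM in WT replicate 2. Outside the marker lists, the adhesion complex gene Pxn had this order too. It held 32.6 CPM in OPA1KO replicate 4, 30.7 CPM in WT replicate 1 and 56.4 CPM in WT replicate 2. Ptk2, from the same list as Pxn, ran the other way in WT libraries, with 33.4 CPM in replicate 1 and 26.5 CPM in replicate 2. The part of the cell type markers in the Itgb2 values was not tested.

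The end region of Itgb2 itself, at 77530118 to 77530492, held 28.6 ± 3.81 CPM in OPA1KO and 30.9 ± 6.71 CPM in WT libraries (SD, n = 4, −0.11 ± 0.15, edgeR adjusted p = 0.943). Leaving out WT replicate 1 moved it to −0.24 and leaving out WT replicate 2 to −0.01. The most abundant region of the window was at the end of Pttg1ip, which encodes a binding protein of securin, at 77581445 to 77582077, with 93.7, 95.7, 105 and 85.9 CPM in OPA1KO libraries, against 87.4, 119.8, 92.0 and 97.9 CPM in WT libraries (−0.06 ± 0.10, edgeR adjusted p = 0.949). The smallest p was at 77509709 to 77509975, inside Fam207a and 20354 bp from Itgb2. It held 3.84, 4.35, 4.42 and 3.77 CPM in OPA1KO libraries, against 6.08, 5.77, 4.64 and 6.10 CPM in WT libraries, without overlap (−0.47 ± 0.26, edgeR adjusted p = 0.822). This low region did not pass the test.

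**Figure D4:**
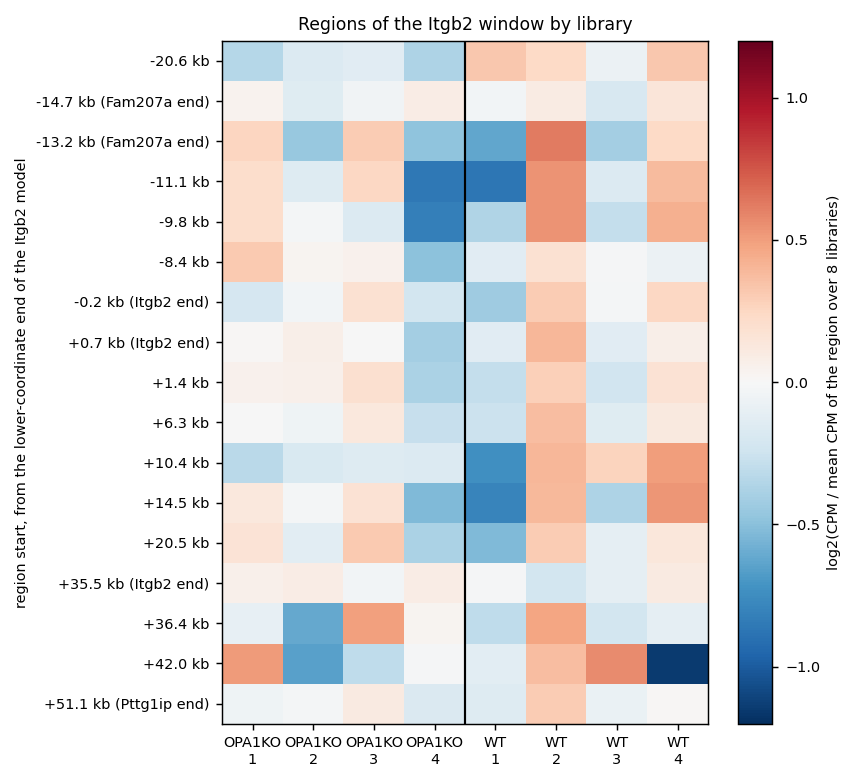
Log2 ratio of the CPM of each library to the mean of the region over the 8 libraries (colour, blue low and red high) at the 17 regions of the Itgb2 window. Rows run by distance of the region's start from the lower-coordinate end of the Itgb2 model, columns are OPA1KO replicates 1 to 4 and WT replicates 1 to 4, and the black line parts the groups. OPA1KO replicate 4 and WT replicate 1 are blue in most rows, while the upper of the 2 rows named for a Fam207a end and the row at the upper end of the Itgb2 model stay pale.

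At the CD103 genes, neither Itgae nor Itgb7 differed between the groups beyond the spread. Itgae (chromosome 11, 73090505 to 73147449) had 11 regions in its window, 6 of them inside the gene and none within 1 kb of an end of its model. Its window summed to 94.9, 81.4, 87.5 and 92.0 CPM in OPA1KO replicates 1 to 4, against 83.01, 89.6, 83.1 and 78.2 CPM in WT replicates 1 to 4 (0.09 ± 0.08, 95% interval −0.07 to 0.25, edgeR adjusted p = 0.999). The highest value was in OPA1KO replicate 1 and the lowest in WT replicate 4, and the groups overlapped. The most abundant region of the window, at 73138153 to 73138529, lay over an end of Haspin, a histone kinase gene nested inside Itgae. It held 34.4, 23.0, 29.0 and 23.3 CPM in OPA1KO libraries, against 24.9, 33.0, 26.8 and 24.8 CPM in WT libraries (0.01 ± 0.15, edgeR adjusted p = 0.998).

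Of the Itgae regions away from Haspin, that nearest the lower-coordinate end of the gene, at 73092896 to 73093318, was the most open, as seen after the fit. Its level was 17.1 ± 1.39 CPM in OPA1KO and 17.8 ± 1.53 CPM in WT libraries (SD, n = 4, −0.05 ± 0.16, edgeR adjusted p = 0.980). The region with the smallest p, at 73131081 to 73131297, was a low one, with 4.55, 3.81, 4.02 and 1.97 CPM in OPA1KO libraries, against 3.497, 2.03, 1.69 and 1.44 CPM in WT libraries (0.71 ± 0.37, edgeR adjusted p = 0.806). In 8 of the 11 regions the log2 fold change was above 0, with a median of 0.23, against 49.3% of all tested regions. Those above 0 included regions at or inside Haspin and the neighbouring genes Ncbp3 and P2rx5, and none was called. Regions of a window share libraries and are not replicates. In the Itgb2 window, 4 of 17 regions were above 0, with a median of −0.08.

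Itgb7 (chromosome 15, 102215994 to 102233405) had 14 regions in its window, but only 5 were inside the gene. The sum over the window was 181 ± 12.9 CPM in OPA1KO and 179 ± 12.7 CPM in WT libraries (SD, n = 4, 0.01 ± 0.07, 95% interval −0.14 to 0.16). The most abundant region, at 102203031 to 102204342, was shared by the ends of Csad and Zfp740 and held 66.5 ± 4.21 CPM in OPA1KO and 67.6 ± 6.78 CPM in WT libraries (−0.02 ± 0.10, edgeR adjusted p = 0.987). Over the regions nearest to Itgb7 alone, the log2 fold change was 0.17 ± 0.12 (edgeR adjusted p = 0.942). The region over its listed start, at 102231817 to 102232061 and described here because its sequence is shown, held 4.84, 2.54, 4.02 and 4.92 CPM in OPA1KO libraries, against 3.34, 5.14, 2.95 and 3.59 CPM in WT libraries (0.12 ± 0.30, edgeR adjusted p = 0.977). The smallest p in the window was inside Zfp740 at 102208062 to 102208481, with 10.6 ± 1.29 CPM in OPA1KO and 8.29 ± 0.816 CPM in WT libraries (0.35 ± 0.20, edgeR adjusted p = 0.824).

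Among the alpha 4 and beta 1 genes, Itga4 had the most abundant single region and the lowest summed fold change of all members, which did not pass the test over all genes. Itga4 (chromosome 2, 79255426 to 79333114) summed to 149.8, 149, 152 and 167 CPM in OPA1KO replicates 1 to 4, against 155, 201, 178 and 165 CPM in WT replicates 1 to 4 (−0.18 ± 0.08, 95% interval −0.34 to −0.02, edgeR adjusted p = 0.911). OPA1KO replicate 4 lay above WT replicates 1 and 4, so the groups overlapped. Most of this signal came from the region over the start site, at 79254606 to 79256051, whose sequence upstream of the start is printed above. It held 124, 123, 123 and 133 CPM in OPA1KO libraries, against 129, 159, 142 and 139 CPM in WT libraries (−0.18 ± 0.08, edgeR adjusted p = 0.738). Without WT replicate 2 the log2 fold change of the Itga4 sum was −0.10.

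Itgb1 (chromosome 8, 128685654 to 128733579) had 5 regions in its window, all nearest to Itgb1 and none at an end of another gene. Itgb1 summed to 81.6 ± 7.37 CPM in OPA1KO and 79.3 ± 8.05 CPM in WT libraries (SD, n = 4, 0.04 ± 0.09, 95% interval −0.15 to 0.22). Its start region at 128685373 to 128686487 held 39.7 ± 4.19 CPM in OPA1KO and 38.6 ± 5.09 CPM in WT libraries (0.04 ± 0.12, edgeR adjusted p = 0.983). The region at 128699656 to 128700071, inside the gene, held 8.68, 11.4, 9.38 and 9.18 CPM in OPA1KO libraries, against 8.21, 7.01, 6.33 and 6.81 CPM in WT libraries (0.43 ± 0.21, edgeR adjusted p = 0.774). Here the OPA1KO libraries lay above all WT libraries, the only such member region, but it did not pass the test, and the next region inside the gene, at 128709319 and named after its value was seen, was at −0.53 ± 0.30.

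At the alpha V, beta 5 and beta 8 genes, no difference passed the test. Itgav (chromosome 2, 83722303 to 83806917) summed to 122, 140, 123 and 141 CPM in OPA1KO replicates 1 to 4, against 152, 135, 133 and 152 CPM in WT replicates 1 to 4 (−0.12 ± 0.07, 95% interval −0.28 to 0.03, edgeR adjusted p = 0.997). The groups overlapped, with OPA1KO replicates 2 and 4 above WT replicates 2 and 3. Its start region at 83723975 to 83724790 held 50.4, 54.0, 58.3 and 60.8 CPM in OPA1KO libraries, against 62.3, 65.3, 57.6 and 68.3 CPM in WT libraries (−0.18 ± 0.10, edgeR adjusted p = 0.821). The smallest p of all member regions was inside Itgav at 83754278 to 83754738, where levels were 4.55, 7.25, 2.41 and 4.43 CPM in OPA1KO libraries, against 6.84, 6.23, 7.81 and 7.71 CPM in WT libraries (−0.63 ± 0.27, edgeR adjusted p = 0.719). OPA1KO replicate 2 lay above WT replicates 1 and 2 there. The log2 fold change was −0.91 without OPA1KO replicate 2 and −0.41 without OPA1KO replicate 3.

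Itgb5 (chromosome 16, 33829665 to 33949338) summed to 76.0 ± 4.91 CPM in OPA1KO and 79.1 ± 7.72 CPM in WT libraries (SD, n = 4, −0.06 ± 0.08, 95% interval −0.23 to 0.12), and over the gene span alone the log2 fold change was −0.14. Its start region at 33829505 to 33830136 held only 8.53, 6.89, 6.84 and 3.77 CPM in OPA1KO libraries, against 6.99, 9.04, 9.70 and 6.81 CPM in WT libraries (−0.31 ± 0.24, edgeR adjusted p = 0.884). It was −0.12 without OPA1KO replicate 4 and −0.47 without OPA1KO replicate 1. The most abundant region lay 1547 bp beyond the other end of the gene, at 33950885 to 33951284, with 24.7 ± 1.99 CPM in OPA1KO and 25.2 ± 5.79 CPM in WT libraries (−0.03 ± 0.15, edgeR adjusted p = 0.987). Inside the gene, the region at 33922113 to 33922682 had the smallest p, with 7.998 ± 0.765 CPM in OPA1KO and 10.1 ± 0.981 CPM in WT libraries (−0.33 ± 0.20, edgeR adjusted p = 0.838).

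Itgb8 (chromosome 12, 119162803 to 119238276) was the least open member, with 4 regions that summed to 22.6, 24.7, 19.98 and 21.8 CPM in OPA1KO replicates 1 to 4, against 29.6, 20.3, 19.6 and 23.3 CPM in WT replicates 1 to 4 (−0.07 ± 0.14, 95% interval −0.37 to 0.23). WT replicate 1 alone stood above the rest. The end region at 119238322 to 119238983 held 6.81 ± 0.676 CPM in OPA1KO and 7.65 ± 2.68 CPM in WT libraries (−0.17 ± 0.24, edgeR adjusted p = 0.945). The most abundant region, 5390 bp beyond the other end of the gene at 119157070 to 119157413, held 10.3 ± 0.984 CPM in OPA1KO and 10.4 ± 2.91 CPM in WT libraries (−0.03 ± 0.21, edgeR adjusted p = 0.995).

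Genes that work with these integrins gave 0 calls at their gene ends, where 1 of 13251 tested regions was called (0.00755%). The median over all gene-end regions was −0.03, 40.1% of them were above 0, and 4.26% had an unadjusted p under 0.05. The counts under that p were 2 at the ligand genes, 1 at the adhesion complex genes, 1 at the TGF-beta receptor and factor genes and 0 in the other lists. Of 10 regions at the other integrin chains, 7 were above 0 (median 0.04), with Itgb2l, a relative of the beta 2 gene, at 0.37 ± 0.27 and Itga6, the laminin-binding alpha 6 chain, at 0.21 ± 0.15. Of 15 regions at genes of integrin ligands and TGF-beta release, 8 were above 0 (median 0.01). Here Cdh1, which encodes E-cadherin, the ligand of CD103, held 4.36 ± 0.821 CPM in OPA1KO and 2.46 ± 0.286 CPM in WT libraries (0.82 ± 0.31, edgeR adjusted p = 0.644). Vcam1, the ligand of alpha 4 beta 1 and also one of the macrophage markers above, held 4.76 ± 1.06 CPM in OPA1KO and 7.38 ± 2.11 CPM in WT libraries (−0.63 ± 0.26, edgeR adjusted p = 0.701).

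Regions at genes that switch integrins on from inside the cell, such as talin and kindlin genes, were above 0 in 7 of 21 (median −0.07). Those with the smallest p were Rasgrp2, an activator of the GTPase RAP1, at 0.21 ± 0.13, and Rapgef1, another RAP1 activator, at −0.17 ± 0.11. Of 24 regions at genes of adhesion complexes and outside-in signalling, 10 were above 0 (median −0.04). In this list Ilk, the integrin-linked kinase gene, held 86.9 ± 4.51 CPM in OPA1KO and 102 ± 6.32 CPM in WT libraries without overlap (−0.23 ± 0.08, edgeR adjusted p = 0.613), and Vcl, the vinculin gene, was at 0.18 ± 0.09. TGF-beta receptor genes and transcription factors known for integrin genes were above 0 in 5 of 14 (median −0.03). They included Runx3, a factor known for its role in CD103 expression, with 18.8 ± 2.14 CPM in OPA1KO and 13.6 ± 2.34 CPM in WT libraries (0.47 ± 0.17, edgeR adjusted p = 0.599), and the ETS factor gene Gabpa at −0.13 ± 0.08. As at Ilk, the groups did not overlap at Cdh1 and Gabpa, and 3.95% of all tested regions were without overlap. That share is over regions of all kinds, and none was computed for gene ends alone.

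The genes whose window sums followed those of the members most closely over the 8 libraries were on other chromosomes. By Pearson correlation of log2 sums across genes with at least 20 CPM and no region in common, Itgb2 was most like Msrb1 (r = 0.998) and Rps2 (r = 0.997), both on chromosome 17. Itgal was most like Dnm2 (r = 0.992) and Egfl8 (r = 0.990), Itgb7 most like Dyrk3 (r = 0.981) and Nudcd3 (r = 0.928), and Itgae most like Bik (r = 0.946) and Tpte (r = 0.938). These are the highest of 14161 to 14164 values per member, each over 8 points that share libraries and depth, and they serve as a description.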

How the data were processed

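The authors deposited 1 table of whole-number counts over a region set common to 8 ATAC-seq libraries, without normalization. Software named in the submitters' processing notes was MACS2 2.1.0.20150603, cutadapt 1.9, bedtools, SAMtools and Picard 1.65, with mm10 and GRCm38. Not given in the sources used here are settings, a transposase offset, how common regions were made, whether both mates were counted and whether starts count from 0. Columns were assigned through the library names in the labels. Gene spans came from RefSeq gene models on GRCm38.p6 (21883 protein-coding models), which carry no exons.

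Regions were filtered with filterByExpr (59247 kept), scaled with TMM (0.947 to 1.03) and tested with edgeR 4.0.16 in R 4.3.3 (glmQLFit, robust, glmQLFTest) over all 8 libraries, with Benjamini-Hochberg adjustment over all tested regions. Counts summed per gene over the span and 25 kb to each side were fitted in the same way over 16976 genes. Gene lists were read at the region of highest mean CPM within 1 kb of a gene end. The fit was tested on simulated data. Regions within a library share cells and depth and are not replicates. Between replicates, chi-square per degree of freedom was 2.16 to 4.74, where independent counts give about 1. Even counts made up 54.1% to 59.9% of values. If both mates were counted, sampling noise alone would raise the chi-square, and by how much was not tested. No pair stood apart as a duplicate, and all libraries were kept as separate. Named regions were, per gene, the end region and the region of highest mean CPM, that of the smallest p, and any called; others are marked in the text. The members and lists were chosen with earlier results of these data known. Alternatives were other scalings and filters, DESeq2 1.42.0, limma-voom (limma 3.58.1), a replicate block, narrower windows, and leaving out each library.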

Additional observations from a re-analysis of the deposited data

Results flagged for a closer look

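In a group of 4 libraries, a single library was counted as far from the rest when its gap to the nearest one, as a share of the range of the group, was above the 95% critical value of Dixon's test. Of 56 groups examined, 5 met this, and chance gives about 1 in 20 groups, or 2.8. The window sum of Itgb1 was 91.2 CPM in WT replicate 1, against 73.5 to 76.4 CPM in the other WT libraries. The Itgal end region at 127296083 was at 29.0 CPM in WT replicate 2, against 18.9 to 19.7 CPM in the others.

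The other 3 involved OPA1KO replicate 4. The region at the end of Zfp768 in the Itgal window was at 35.9 CPM there, against 39.0 to 39.3 CPM in the other OPA1KO libraries. The Itga4 start region at 79254606 was at 133 CPM, against 123 to 124 CPM, and the Itgb8 region at 119157070 was at 11.8 CPM, against 9.79 to 9.92 CPM.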

How the results depend on the processing

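The count of 0 called member regions and of 0 called member genes was the same under each alternative run, including the narrower windows. Over all regions, 12 calls became 38 with DESeq2, 3 with limma-voom, 1 with the replicate block, and 1 to 68 when 1 library was left out, with 68 without WT replicate 2, 22 without OPA1KO replicate 4, 8 without WT replicate 1, 4 without OPA1KO replicate 2 and 1 without any other. The cause was not tested. Without that library, 48 of 83 member regions were above 0 (median 0.05). Of 162 values of the 9 window sums, 10 changed sign, all with 1 library left out, and none passed the threshold (smallest adjusted p = 0.562). Of 285 values of the 19 named regions, 18 changed sign (smallest adjusted p = 0.480). Leaving out 1 library moved the log2 fold change between −0.013 and 0.093 for Itgal, −0.155 and 0.045 for Itgb2, −0.028 and 0.055 for Itgb7, −0.022 and 0.12 for Itgb1, −0.096 and 0.012 for Itgb5 and −0.137 and 0.081 for Itgb8. For regions, the ranges were −0.116 to 0.041 at 77581445, −0.123 to 0.113 at 73138153, −0.071 to 0.02 at 102203031, −0.044 to 0.122 at 128685373, −0.107 to 0.145 at 33950885, −0.315 to 0.114 at 119238322 and −0.136 to 0.166 at 119157070. Without a change of sign, the ranges were 0.032 to 0.308 at 127296083, −0.175 to −0.063 at 127345288, −0.239 to −0.009 at 77530118, −0.471 to −0.121 at 33829505, −0.911 to −0.407 at 83754278 and 0.56 to 1.061 at 73131081, and −0.228 to −0.104 for the Itga4 sum. Narrower windows moved the sum of Itgal to 0.118 (10 kb) and 0.154 (gene span), of Itgb7 to 0.211 (10 kb), of Itgb5 to −0.142, of Itgb1 to 0.062 and of Itgb8 to −0.018 (gene span). The sum of Itgav moved from −0.124 to −0.183 over the gene span. With gene spans alone, 2 of the 9 genes had an unadjusted edgeR p under 0.05, against 1 with the full windows, and none was called. With the replicate block, the region at 73138153 was at −0.002 and that at 119157070 at 0.004. Same-numbered libraries did not deviate together (correlations of −0.127, −0.011, −0.075 and −0.070 for replicates 1 to 4), so the numbers were not taken as pairs. Over all 16 pairs of an OPA1KO and a WT library, the extremes were 0.217 for OPA1KO replicate 4 with WT replicate 1 and −0.237 for OPA1KO replicate 4 with WT replicate 2, which are the low and high libraries at Itgb2. Standard errors of single member regions reached 0.576, and the median over all tested regions was 0.247. A difference must be several times its standard error to be called. Differences of moderate size could thus go uncalled in most regions, and larger ones in the regions of lowest count.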

Other observations

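Summed levels of the remaining marker lists at gene ends were as follows. Plasmacytoid dendritic cell markers (2 of 4 with a region) ran from 48.6 to 60.5 CPM in OPA1KO and 55.5 to 60.1 CPM in WT libraries, B cell markers (2 of 5) from 25.0 to 29.2 CPM in OPA1KO and 26.96 to 33.8 CPM in WT libraries, and the NK cell list (1 of 3) from 2.72 to 6.26 CPM in OPA1KO and 1.43 to 4.22 CPM in WT libraries. The T cell list rested on Cd3d alone, with 41.0 to 67.2 CPM in OPA1KO and 49.4 to 67.0 CPM in WT libraries, and red cell markers (2 of 4) ran from 8.85 to 13.9 CPM in OPA1KO and 6.86 to 11.1 CPM in WT libraries. None of the markers with a region was at 0.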
